A study of Mus musculus with 17 samples.

Results

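The genes described are 39 of the 48795 in the counts table of mouse kidney cortex. They were taken by gene name from a list of interferon-induced and antigen presentation genes, and all 39 were in the table. Of them, 27 are induced by interferon and 12 encode proteins that prepare, carry or regulate the display of peptides. Messenger RNA was sequenced from 17 libraries, in 4 groups with 5, 5, 3 and 4 libraries: WT, GCERAd, TRACK and GCERAdT. The study states 3 to 4 mice per cohort, and whether some of these libraries come from the same mouse is not given in the sources used here.

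WT mice were wild type. GCERAd mice were ATF4 KO by label. They carried the Ggt/CreER transgene, in which a part of the Ggt1 promoter drives a tamoxifen-dependent Cre in proximal tubules, together with floxed alleles of ATF4 (fl/fl). Tamoxifen, in volumes of 200 µL at 20 mg/mL, was given to them at 6 weeks of age, on 2 days, and cortex was taken 1 month after the first dose, following a fast of 16 h. TRACK mice, whose name stands for a transgenic model of kidney cancer, were labelled by that name only, and GCERAdT mice were labelled TRACK-ATF4 KO. The transgene of TRACK and the treatment and age of both TRACK groups and of WT are not given in the sources used here. Cre in this line is meant to act in the proximal tubule, and the state of the floxed alleles in the endothelium and leukocytes of the same tissue was not measured here.

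Interferons are secreted signals that bind receptors coupled to the kinases Jak1, Jak2 and Tyk2. Type I and type III interferons activate a complex with Stat2 and Irf9, which binds the interferon-stimulated response element (ISRE) in promoters, whereas interferon-gamma acts through the gamma-activated site (GAS). The induced genes encode RNA sensors, enzymes and membrane proteins that hinder viruses, and GTPases of the guanylate-binding (Gbp) and immunity-related (Irg) families, many of which respond mostly to interferon-gamma. Antigen presentation is induced in part by the same signals. MHC class I, made of a heavy chain such as H2-K1 or H2-D1 and of B2m, displays peptides that the proteasome has cut and the Tap1-Tap2 transporter has moved into the endoplasmic reticulum. MHC class II, represented here by the genes of the chains H2-Aa, H2-Ab1 and H2-Eb1 and of the invariant chain Cd74, is carried mainly by macrophages, dendritic cells and B cells, under the control of Ciita.

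Atf4, the targeted gene, was measured at 79.6, 74.1, 82.5, 86.9 and 101 CPM (reads on a gene relative to all reads on genes, scaled by TMM) in WT and at 73.3, 56.4, 57.7, 63.5 and 77.0 CPM in GCERAd. Its log2 fold change in GCERAd over WT was -0.38 (SE 0.11, adjusted p = 0.0287, edgeR), and the groups overlapped. The libraries labelled GCERAdT held 78.6, 92.4, 93.5 and 103 CPM and TRACK held 93.2, 79.6 and 77.3 CPM, a log2 fold change of 0.15 (SE 0.11, adjusted p = 0.46, edgeR). Atf4 was thus not lower in the libraries labelled TRACK-ATF4 KO, and every direction drawn from that group rests on the label. Totals on genes were 53688512 to 71364561 per library, with a median of 58709786. Xist was at 149 to 420.4 CPM in WT and at most 6.09 CPM elsewhere, and the Y-linked Ddx3y had no read in WT and 50.2 to 79.5 CPM in the other 12 libraries, so sex and genotype cannot be told apart in comparisons with WT. The share of reads on processed pseudogenes was 0.032% to 0.038% in 8 libraries (kind A) and 0.0574% to 0.0784% in 9 (kind B). WT 1, 3, 4 and 5, GCERAd 1 and 2 and GCERAdT 1 and 2 were of kind A, and all 3 TRACK libraries were of kind B. The remaining 6 libraries were WT 2, GCERAd 3, 4 and 5 and GCERAdT 3 and 4, also of kind B. GCERAd 4 and 5 stood apart from GCERAd 1, 2 and 3. Proximal tubule markers such as Lrp2 and Slc34a1 were abundant in every library, with a sum over 6 markers of 3253 to 9413 CPM.

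Promoters were read from RefSeq (GRCm38.p6) as the 250 bases before each annotated start. They were found for 29 of the 39 genes. The 10 without one were Dhx58, Oas2, Mx1, Mx2, Usp18, Iigp1, Tap2, H2-Ab1, Cd74 and Ciita. On either strand, the ISRE core, GAAA followed after any 2 bases by another GAAA, was in 12 of 21 interferon-induced genes (57.1%) and in 1 of 8 antigen presentation genes, B2m (12.5%), against 3.46% of 27025 genes. The GAS core TTCNNNGAA was in 6 of 21 (Irf1, Ifit2, Oas1a, Bst2, Gbp7 and Igtp, 28.6%) and in 1 of 8, Psmb8, against 8.13% of all genes. The core TGATGNAA, a form of the element that ATF4 binds with C/EBP partners, was in 0 of 21 and 0 of 8, against 3.91% of all genes. ISRE and GAS letters overlap in Bst2. These matches describe letters and are not measured sites. The promoters of Gbp3, Gbp7 and Igtp are shown because these GTPase genes changed in the comparisons, that of Isg15 because it is a classical ISRE promoter of a gene that did not pass a test here, and that of Ddx58 because the gene was called and its window holds neither core. Capitals mark ISRE and GAS letters, on whichever strand they lie.
Gbp3 (chr3:142559794-142560043, + strand): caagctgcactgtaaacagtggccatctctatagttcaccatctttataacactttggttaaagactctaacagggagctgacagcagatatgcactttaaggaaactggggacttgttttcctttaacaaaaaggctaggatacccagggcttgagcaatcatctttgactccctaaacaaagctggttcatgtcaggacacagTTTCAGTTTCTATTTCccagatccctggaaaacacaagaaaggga
Gbp7 (chr3:142530086-142530335, + strand): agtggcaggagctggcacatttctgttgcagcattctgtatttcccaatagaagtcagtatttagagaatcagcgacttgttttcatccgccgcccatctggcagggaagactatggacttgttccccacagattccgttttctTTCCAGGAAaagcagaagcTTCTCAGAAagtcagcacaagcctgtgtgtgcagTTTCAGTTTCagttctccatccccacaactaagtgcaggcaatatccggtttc
Igtp (chr11:58199306-58199555, + strand): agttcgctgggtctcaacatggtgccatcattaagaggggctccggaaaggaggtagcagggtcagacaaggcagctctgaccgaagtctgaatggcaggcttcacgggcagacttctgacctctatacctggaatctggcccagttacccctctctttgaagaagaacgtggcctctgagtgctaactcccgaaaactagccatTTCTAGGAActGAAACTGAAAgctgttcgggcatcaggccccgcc
Isg15 (chr4:156200819-156201068, - strand): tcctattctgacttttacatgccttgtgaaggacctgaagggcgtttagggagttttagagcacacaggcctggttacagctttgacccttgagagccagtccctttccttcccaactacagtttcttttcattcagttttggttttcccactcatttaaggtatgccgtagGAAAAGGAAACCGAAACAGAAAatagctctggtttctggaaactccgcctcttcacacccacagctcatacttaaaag
Ddx58 (chr4:40239826-40240075, - strand): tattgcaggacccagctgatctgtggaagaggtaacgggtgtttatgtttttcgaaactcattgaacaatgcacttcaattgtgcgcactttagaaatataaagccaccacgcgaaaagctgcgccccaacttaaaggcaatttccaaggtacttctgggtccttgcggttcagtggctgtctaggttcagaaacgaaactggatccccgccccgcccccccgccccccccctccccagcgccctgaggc
The Gbp3 window holds 2 overlapping ISRE matches, that of Gbp7 1 ISRE and 2 GAS, that of Igtp 1 of each, and that of Isg15 3 ISRE matches in a row. Irgm1, whose promoter is not shown, had 2 ISRE matches. For 30 of the 34 windows of these genes, bases shortly after the window lie within a transcript of the gene in the annotation used for gene lengths. Whether they lie at a transcript start was not checked.

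Levels differed widely between the genes. Per length, in FPKM (CPM per kilobase of merged exons), B2m was highest, at a mean of 350.1 in WT, followed by Cd74 at 86.8, H2-D1 at 82.8 and H2-K1 at 73.7 FPKM. The class II chains lay lower, at 28.3 FPKM for H2-Eb1, 26.3 for H2-Ab1 and 16.3 for H2-Aa. The highest interferon-induced genes in WT were Gbp3 at 11.6, Bst2 at 10.9 and Rsad2 at 10.1 FPKM. At the other end, Mx1 had 0.0372, Oas2 0.101 and Mx2 0.106 FPKM. Mean FPKM was at least 1 in all 4 groups for 31 members, under 1 in all of them for 6 (Mx1, Mx2, Oas1a, Oas2, Usp18 and Ciita), and on both sides for 2. Those 2 were Dhx58, under 1 in WT and GCERAd, and Oasl2, over 1 in TRACK.

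**Figure D1:**
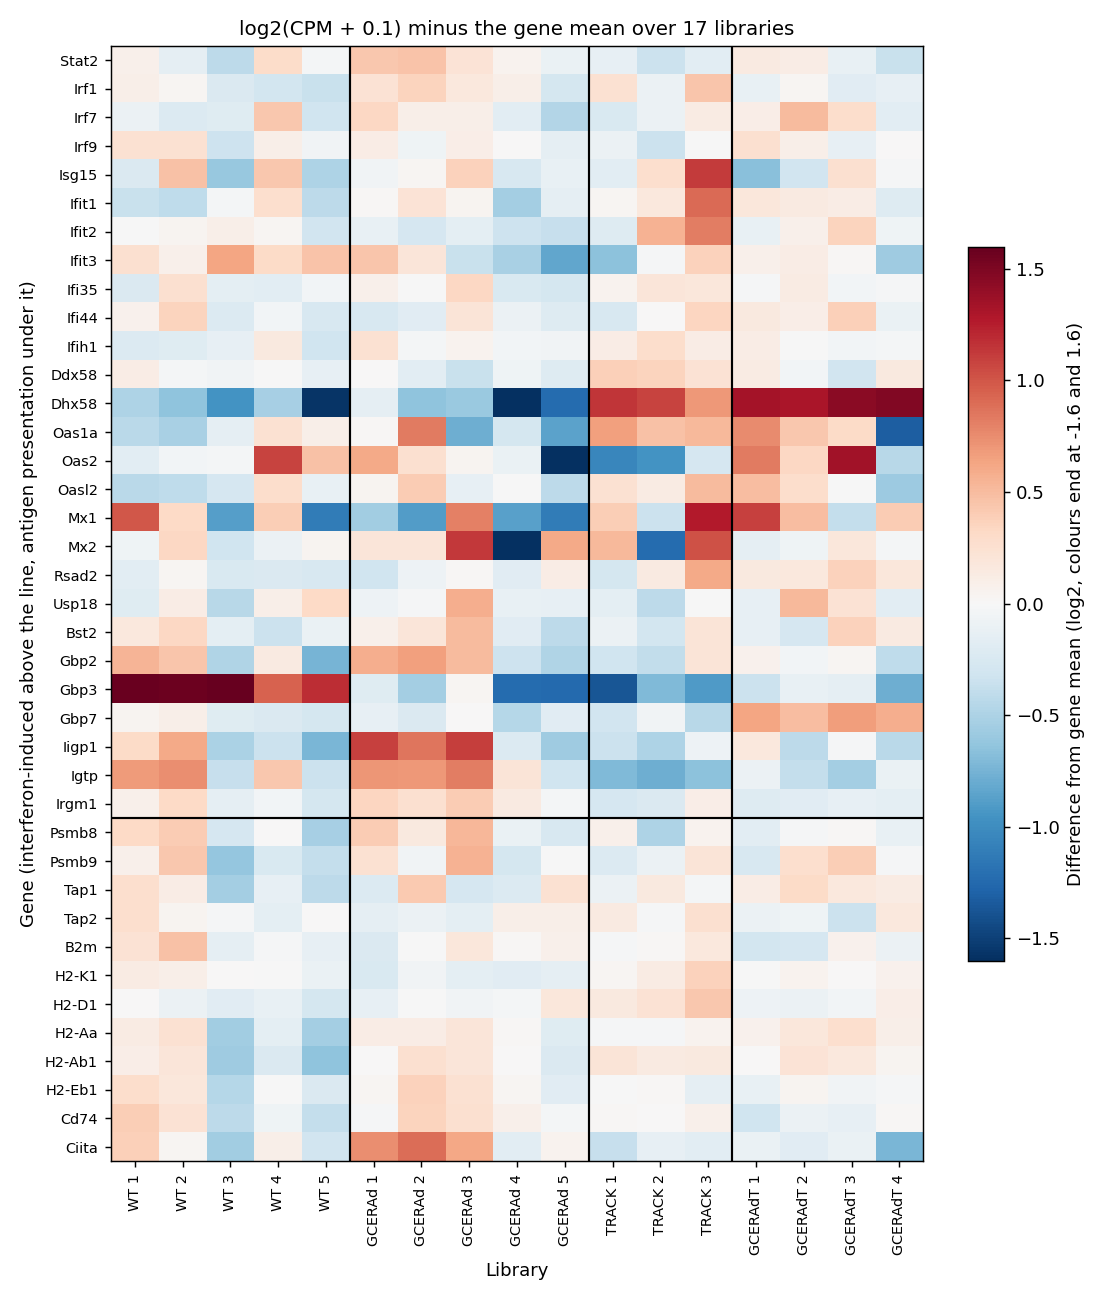
Colours show log2(CPM + 0.1) of each gene minus its mean over the 17 libraries, with genes in rows (27 interferon-induced above the line, 12 antigen presentation under it) and libraries in columns by group. Gbp3 is high in all 5 WT libraries, Dhx58 in the 7 TRACK and GCERAdT libraries and Gbp7 in the 4 GCERAdT libraries, whereas most other rows vary between libraries of a group as much as between groups.

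The question set by the design is what loss of ATF4 in proximal tubules changes, without TRACK (GCERAd against WT) and with it (GCERAdT against TRACK), and what TRACK changes. Few of the 39 genes passed a test in any of these comparisons. In GCERAd against WT, 1 of 38 genes tested passed an adjusted p of 0.05 (edgeR's quasi-likelihood test, Benjamini-Hochberg over all genes tested), whereas 21.2% of all 16149 genes did (10.8% higher and 10.5% lower). It was Gbp3, which fell. In GCERAdT against TRACK 1 of 39 passed, Gbp7, which rose, where 5.27% of 16657 genes passed (2.03% higher and 3.24% lower). In TRACK against WT 5 of 39 passed, where 37.7% of 16369 genes did (19.1% higher and 18.6% lower): Dhx58, Ddx58 and H2-D1 rose, and Gbp3 and Igtp fell. In GCERAdT against GCERAd 4 of 38 passed, where 14.1% of 16546 genes did (6.42% higher and 7.69% lower): Dhx58 and Gbp7 rose, and Igtp and Irgm1 fell. The difference between both ATF4 KO contrasts, that with TRACK minus that without it, passed for 4 of 38 genes, where it did for 19.8% of 16492 (8.85% above 0 and 10.9% below): Gbp3 and Gbp7 were above 0, and H2-D1 and Irf1 below. At an unadjusted p of 0.05 the 5 counts were 4, 8, 13, 10 and 6. Over all genes, that p was reached by 5507 of 16149 in the first and 3703 of 16657 in the second. It was reached by 4635 of 16546 in the fourth and 5487 of 16492 in the fifth. In the third, TRACK against WT, at least 6166 of 16369 reached it, the number that passed after adjustment. At the adjusted threshold, with no block in the fit, the members' share of calls lay under that of all genes in each of the 5. Same-numbered libraries of GCERAd and GCERAdT deviated from their group means together, with correlations of 0.39 to 0.51 in all 4 pairs. Library kind was the same within each pair, so a pairing by number and a shared kind cannot be told apart. With the number as a block, 11 of 38 members passed in GCERAdT over GCERAd, where 24.5% of 16546 genes did. GCERAd 5, which has no partner, adds nothing to the difference in that fit. The 3 that rose were Dhx58, Gbp7 and Rsad2, and the 8 that fell were Stat2, Irf1, Gbp2, Iigp1, Igtp, Irgm1, Cd74 and Ciita. With library kind as a covariate in place of the block, Irf1, Gbp2, Iigp1 and Cd74 did not pass, and the others did.

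The medians of the log2 fold changes stayed near 0. Over the 26 interferon-induced genes tested in GCERAd against WT the median was 0.06, and over the 12 antigen presentation genes 0.13, against 0.00 over all genes tested. In GCERAdT against TRACK they were 0.04 and -0.03, against 0.02. In TRACK against WT they were 0.05 and 0.09, against -0.01, and in GCERAdT against GCERAd 0.07 and -0.03, against 0.00. The groups did not overlap for 1 gene in GCERAd against WT, for 7 in GCERAdT against TRACK, for 7 in TRACK against WT and for 5 in GCERAdT against GCERAd. Among all genes tested, the groups did not overlap for 16.4%, 20.5%, 38.7% and 16.3%. Mx1 fell under the mean of 10 reads that a test required in GCERAd against WT and in GCERAdT against GCERAd.

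**Figure D2:**
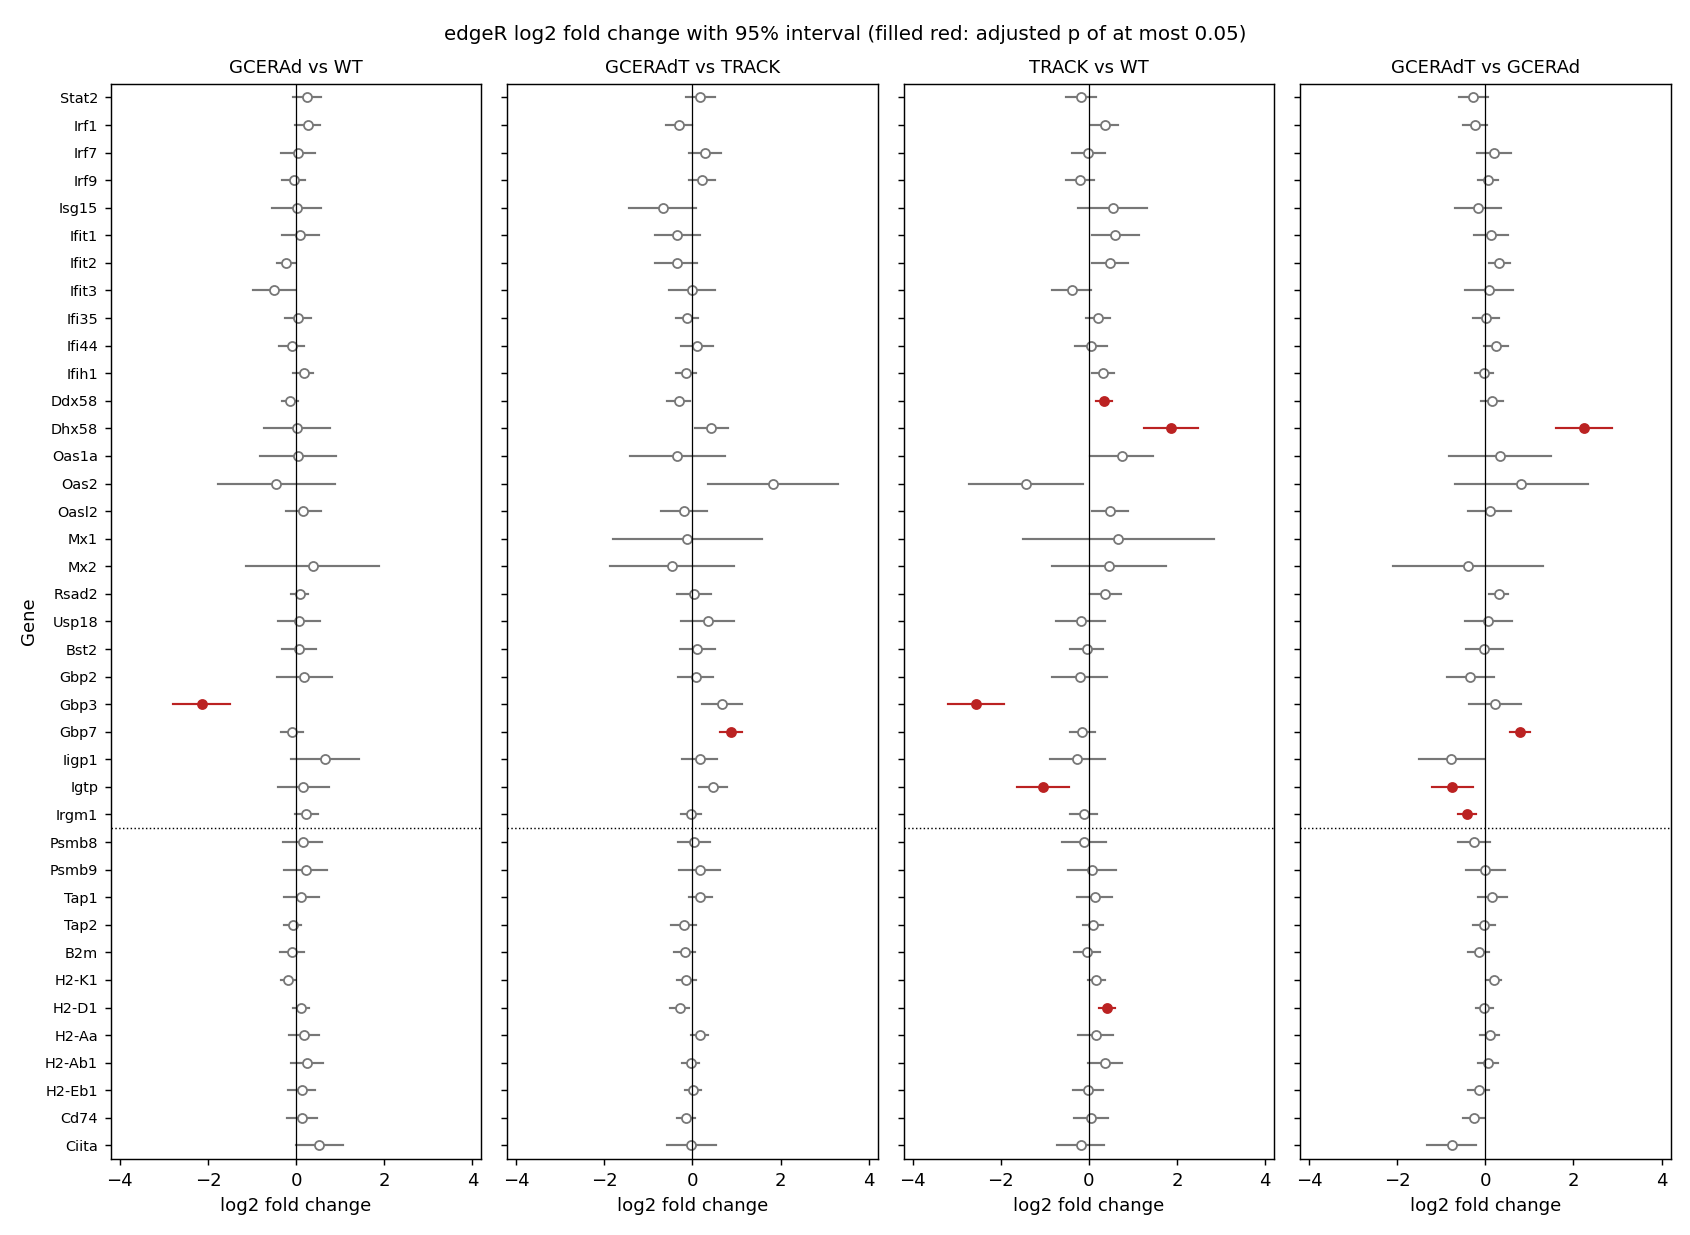
Each panel shows 1 comparison, with the log2 fold change of every gene on the x axis and its 95% interval as a line; filled red points passed the adjusted p of 0.05 (edgeR), and a gene with no point was not tested. Red points are 1, 1, 5 and 4 from left to right, and the widest intervals belong to Mx2, Oas2 and, where tested, Mx1.

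Gbp3, a guanylate-binding GTPase that acts on membranes of intracellular pathogens, was the member that separated WT from the other groups (ENSMUSG00000028268, chromosome 3 from 142560026 to 142573209, + strand, GRCm38). It was measured at 37.9, 37.4, 60.9, 24.3 and 28.8 CPM in WT and at 11.0, 8.63, 12.8, 5.31 and 5.27 CPM in GCERAd. Every GCERAd library lay under every WT library, with a fitted log2 fold change of -2.14 (SE 0.30, 95% interval -2.78 to -1.50, adjusted p = 0.000336, edgeR). TRACK held 4.81, 7.67 and 6.70 CPM. Over WT this was -2.56 (SE 0.29, 95% interval -3.20 to -1.92, adjusted p = 8.97e-05, edgeR), again with no overlap. In the libraries labelled GCERAdT it was at 9.93, 11.6, 11.4 and 7.28 CPM, which overlapped both TRACK and GCERAd. Its log2 fold changes there were 0.66 (SE 0.21, adjusted p = 0.0942, edgeR) over TRACK and 0.22 (SE 0.27, adjusted p = 0.644, edgeR) over GCERAd. The ATF4 KO contrast with TRACK minus that without it was 2.79 (SE 0.43, adjusted p = 0.000257, edgeR).

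The drop of Gbp3 in GCERAd was -1.96 (adjusted p = 0.003, edgeR) among kind A libraries, -2.28 (adjusted p = 0.155, edgeR) among those of kind B, which leave 1 WT library and so no spread for WT, and -1.81 (adjusted p = 0.000567, edgeR) without GCERAd 4 and 5. Its low level followed the same split of libraries as Xist and Ddx3y, WT against all others, and the part of sex in it cannot be told apart from genotype. The sum of 12 macrophage and dendritic cell markers was 99.0 to 115 CPM in WT, 68.4 to 114 in GCERAd, 100.03 to 106 in TRACK and 84.9 to 103 in GCERAdT, with 0 of 12 called in GCERAd against WT and 1 of 12 (Flt3, higher) in TRACK against WT. Of 7 T cell markers, Cd4 was lower in GCERAd than in WT, on 16 to 41 and 39 to 56 reads per library (-1.07, SE 0.33, adjusted p = 0.0362, edgeR), and the other 6 did not pass. In that comparison 10.8% of all genes were higher and 10.5% lower. Of 6 markers of other nephron segments and podocytes, 4 (Umod, Slc12a1, Slc12a3 and Aqp2) were lower in GCERAd, with sums of 4202 to 5300.5 against 6359 to 8864 CPM, and 1 of 6 proximal tubule and 1 of 5 endothelial markers (Ggt1 and Kdr) were higher. The part of these cells in the result was not tested. In bulk tissue, fewer cells of a type and less RNA per cell cannot be told apart.

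Gbp7, the gene next to Gbp3 on chromosome 3, behaved differently (ENSMUSG00000040253, chromosome 3 from 142530342 to 142550149, + strand). It was at 15.2, 15.8, 12.8, 12.5 and 12.1 CPM in WT, 13.4, 12.6, 14.8, 10.8 and 13.0 in GCERAd and 11.9, 14.2 and 10.8 in TRACK. In the libraries labelled GCERAdT it was at 22.8, 20.9, 23.6 and 22.1 CPM, above all 13 other libraries. The log2 fold change was 0.87 (SE 0.11, 95% interval 0.62 to 1.12, adjusted p = 0.00263, edgeR) over TRACK and 0.79 (SE 0.10, 95% interval 0.57 to 1.01, adjusted p = 0.00048, edgeR) over GCERAd. In GCERAd over WT it was -0.09 (SE 0.11, adjusted p = 0.602, edgeR), and the difference between the ATF4 KO contrasts was 0.94 (SE 0.16, adjusted p = 0.000573, edgeR). These calls held in kind B libraries alone, at 0.89 (adjusted p = 0.0326, edgeR) over TRACK and 0.84 (adjusted p = 0.046) over GCERAd. Gbp7 shares 637 exon bases on the same strand with the annotated gene Gm43802, so reads there may have been counted as ambiguous. In GCERAdT over GCERAd, where 6.42% of all genes were higher and 7.69% lower, 3 of 5 endothelial markers were higher and 2 of 6 proximal tubule markers lower. Their sums were 505 to 573 against 342 to 492 CPM and 3823 to 4695 against 5958 to 9413 CPM, and their part in the changes of Gbp7, Igtp, Irgm1 and Dhx58 in that comparison was not tested.

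Gbp2, the third Gbp member (ENSMUSG00000028270, chromosome 3 from 142620602 to 142638008, + strand), passed no test without the block. It spread widely within groups, at 14.7, 13.7, 7.17, 11.1 and 5.94 CPM in WT and 15.1, 15.8, 14.3, 7.95 and 7.14 in GCERAd. TRACK held 8.06, 7.60 and 11.6 CPM and GCERAdT 10.5, 9.77, 10.2 and 7.58 CPM. Its interval in GCERAd over WT was -0.44 to 0.82 on the log2 scale. Between GCERAd and GCERAdT its change was -0.34 (SE 0.24, adjusted p = 0.397, edgeR) and, with the library number as a block, -0.45 (adjusted p = 0.0294, edgeR). Gbp genes resemble each other in sequence, and reads that fit more than 1 of them are uncertain.

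**Figure D3:**
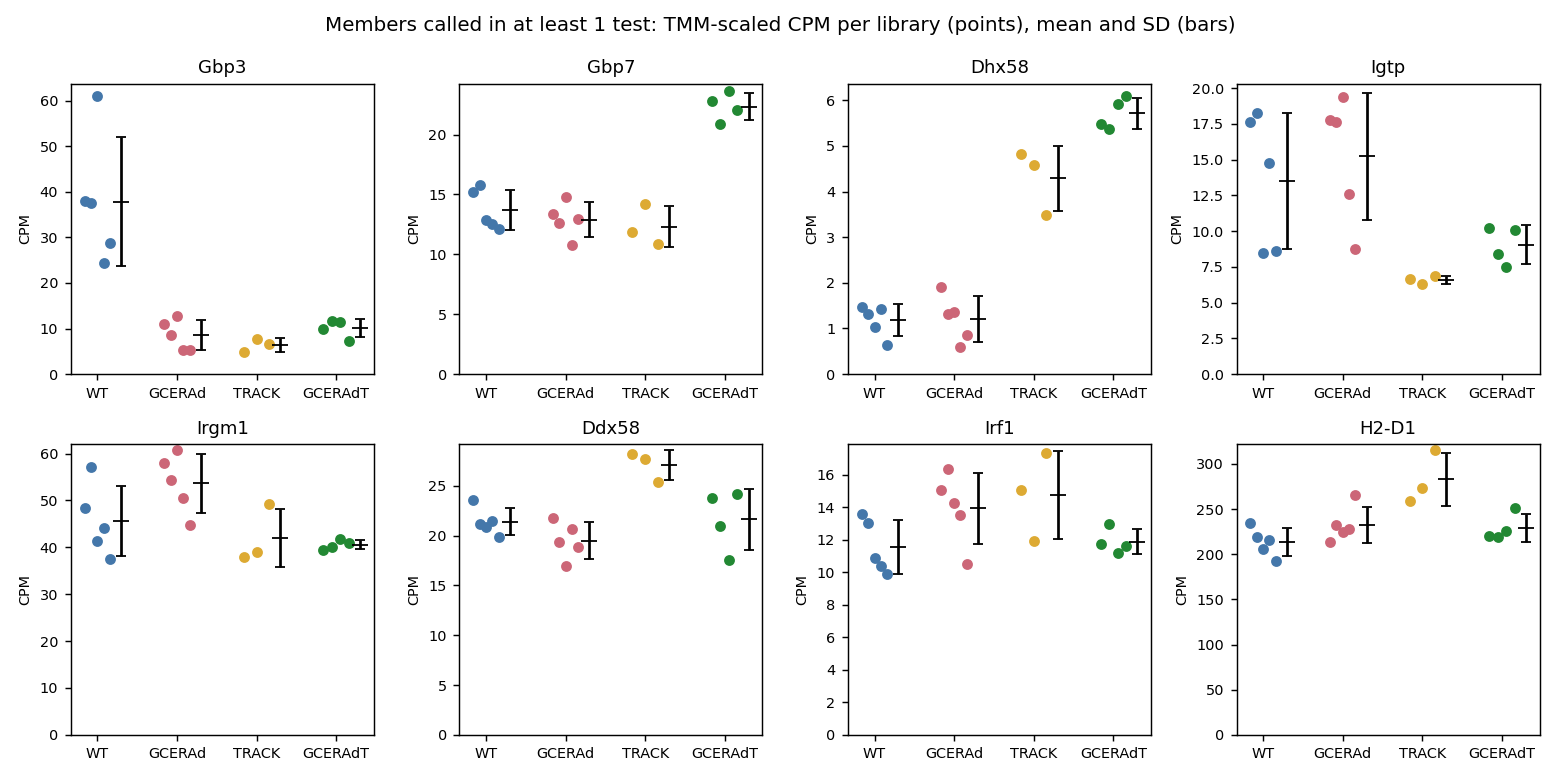
Points are the libraries of each group, in order of library number, with TMM-scaled CPM on y axes that start at 0; bars give the mean and SD of 5 WT, 5 GCERAd, 3 TRACK and 4 GCERAdT libraries for the 8 genes that passed at least 1 test. WT lies apart from the other 3 groups for Gbp3, GCERAdT for Gbp7, and both TRACK groups lie above both others for Dhx58.

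Among the Irg GTPases, which act on vacuoles of intracellular pathogens, Igtp (ENSMUSG00000078853, chromosome 11 from 58199556 to 58207591, + strand) was lowest in TRACK. It was at 17.6, 18.2, 8.44, 14.7 and 8.58 CPM in WT, 17.8, 17.7, 19.3, 12.6 and 8.74 in GCERAd and 6.65, 6.31 and 6.86 in TRACK. The 3 TRACK libraries lay within 6.31 to 6.86 CPM, under every WT library, with a log2 fold change of -1.03 (SE 0.27, 95% interval -1.62 to -0.44, adjusted p = 0.0114, edgeR). Against WT 2 alone, the 1 WT library of the same kind as TRACK, the change was -1.47, with no spread for WT. In the libraries labelled GCERAdT, at 10.2, 8.37, 7.48 and 10.1 CPM, it lay above TRACK with no overlap but passed no test (0.47, SE 0.15, adjusted p = 0.1, edgeR). Over GCERAd it was -0.75 (SE 0.21, adjusted p = 0.0397, edgeR), with an overlap, and this call held only without GCERAd 4 or GCERAd 5. Without each of the other 7 libraries it was lost, and adjusted p-values over the 9 fits ran from 0.00385 to 0.123 (edgeR). With the number as a block the change was -0.89 (adjusted p = 0.00804, edgeR). Igtp shares 162 exon bases with Irgm2 on the same strand.

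Irgm1, a regulator of the other Irg proteins (ENSMUSG00000046879, chromosome 11 from 48861968 to 48871683, - strand), was at 58.0, 54.4, 60.7, 50.6 and 44.8 CPM in GCERAd and 39.5, 40.05, 41.7 and 40.9 in the libraries labelled GCERAdT. The latter were lower with no overlap. The log2 fold change was -0.41 (SE 0.09, 95% interval -0.61 to -0.20, adjusted p = 0.0145, edgeR). WT held 48.3, 57.1, 41.3, 44.2 and 37.4 CPM and TRACK 37.8, 38.9 and 49.2 CPM, and neither ATF4 KO contrast passed (0.23, SE 0.12, adjusted p = 0.207, edgeR without TRACK). With possible repeat libraries summed, the change over GCERAd was -0.38 (adjusted p = 0.074, edgeR), and among kind B libraries -0.33 (adjusted p = 0.352, edgeR).

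Iigp1 (also Irga6) showed the widest spread of the Irg genes. In GCERAd it was at 23.5, 19.9, 23.6, 9.34 and 7.33 CPM, so that GCERAd 1, 2 and 3 held more than GCERAd 4 and 5. WT was at 13.6, 16.7, 7.63, 8.58 and 6.55 CPM, with WT 1 and 2 highest. TRACK held 8.56, 7.74 and 10.3 and GCERAdT 12.3, 8.12, 10.8 and 8.04 CPM. In GCERAd over WT the log2 fold change was 0.65 (SE 0.35, 95% interval -0.12 to 1.42, adjusted p = 0.218, edgeR), and without GCERAd 4 and 5 it was 1.07 (adjusted p = 0.0116, edgeR). Those libraries were its lowest in GCERAd, so leaving them out raises the change. GCERAdT over GCERAd gave -0.77 (SE 0.34, adjusted p = 0.159, edgeR) and, with the number as a block, -0.90 (adjusted p = 0.00865, edgeR).

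The order of GCERAd libraries seen for Iigp1 recurred, a pattern singled out after the values were seen. GCERAd 4 and 5 both lay under GCERAd 1, 2 and 3 in 18 of the 27 interferon-induced genes (66.7%) and in 3 of the 12 antigen presentation genes, against 24.2% of all 16149 genes tested. The 18 included Stat2, Irf1, Irf7, Isg15, Ifit1, Gbp2, Igtp and Irgm1. Ptprc, the common leukocyte antigen, followed the same order, at 9.57, 12.6, 12.2, 7.40 and 5.92 CPM, as did the sum of the 12 macrophage and dendritic cell markers, at 106, 114, 112, 80.3 and 68.4 CPM. The sum of 6 proximal tubule markers was 8205, 9413, 8255, 6169 and 5958 CPM in the same order of libraries. The part of these cells in the pattern was not tested. Without GCERAd 4 and 5, 2 interferon-induced genes (Irf1 and Iigp1) and 1 antigen presentation gene (Ciita) passed as higher in GCERAd over WT, where none did with all 5 libraries, and Gbp3 remained the only lower one. These libraries were left out after they were seen to be lowest in the same genes, which raises the change in advance. The 3 calls are therefore no separate evidence of a rise, and no all-gene count stands beside them.

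The RNA sensors differed from each other. Dhx58 (LGP2, a regulator of both other sensors; ENSMUSG00000017830, chromosome 11 from 100694884 to 100704271, - strand) was at 1.47, 1.32, 1.04, 1.43 and 0.647 CPM in WT and 1.90, 1.32, 1.37, 0.584 and 0.846 in GCERAd, but at 4.81, 4.57 and 3.49 in TRACK and 5.48, 5.37, 5.91 and 6.09 in GCERAdT. All 7 libraries of the TRACK genotypes lay above all 10 others. The log2 fold change was 1.86 (SE 0.28, 95% interval 1.25 to 2.47, adjusted p = 0.000505, edgeR) in TRACK over WT and 2.24 (SE 0.29, 95% interval 1.61 to 2.88, adjusted p = 0.000601, edgeR) in GCERAdT over GCERAd. Neither ATF4 KO contrast passed, at 0.02 (SE 0.35, adjusted p = 0.971, edgeR) without TRACK and 0.42 (SE 0.17, adjusted p = 0.173, edgeR) with it. Both TRACK calls held in the alternatives run, of which kind B alone leaves 1 WT library and is no check on the spread of WT. The gene was counted on 31 to 424 reads per library, and 141 of its exon bases lie opposite Dhx58os on the other strand.

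Ddx58 (RIG-I, a sensor of viral RNA ends; ENSMUSG00000040296, chromosome 4 from 40203773 to 40239828, - strand) was at 28.2, 27.7 and 25.4 CPM in TRACK, above WT at 23.6, 21.2, 20.9, 21.5 and 19.8 CPM. The log2 fold change was 0.34 (SE 0.08, 95% interval 0.17 to 0.52, adjusted p = 0.00587, edgeR). The call was lost once library kind entered the fit (0.35, adjusted p = 0.0898, edgeR). GCERAd held 21.7, 19.4, 16.9, 20.6 and 18.8 CPM and GCERAdT 23.8, 20.98, 17.6 and 24.1 CPM. GCERAdT lay under TRACK with no overlap, at -0.31 (SE 0.12, adjusted p = 0.152, edgeR), which did not pass. Ifih1 (MDA5, a sensor of long double-stranded RNA) was at 11.8, 12.0, 12.6, 15.3 and 11.0 CPM in WT and 14.9, 16.7 and 14.9 in TRACK. Its log2 fold change was 0.31 (SE 0.11, adjusted p = 0.0516, edgeR), and without WT 4, its highest WT library, it passed (0.39, adjusted p = 0.0116, edgeR). That was 1 of 8 fits with 1 library left out, over which adjusted p-values reached 0.184 (edgeR).

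None of the 4 factors that carry the interferon signal to DNA passed in a comparison of 2 groups without the block. Their fitted log2 fold changes in those comparisons lay between -0.30 and 0.36, both of them values of Irf1. Stat2 was at 8.03 to 13.2 CPM in WT and 9.99 to 14.8 in GCERAd, a log2 fold change of 0.25 (SE 0.15, adjusted p = 0.265, edgeR). In GCERAdT over GCERAd it was -0.27 (SE 0.15, adjusted p = 0.262, edgeR), and -0.35 with the number as a block (adjusted p = 0.0195, edgeR). Irf9, its partner, was at 9.58 to 14.3 and 10.9 to 13.1 CPM, -0.05 (SE 0.12, adjusted p = 0.784, edgeR), and shares 123 exon bases with Rnf31. Irf7, which amplifies type I interferon production, was at 9.33 to 12.2 CPM in TRACK and 9.88 to 15.8 in GCERAdT, 0.28 (SE 0.17, adjusted p = 0.366, edgeR).

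Irf1, a factor induced strongly by interferon-gamma that drives Gbp and class I genes, passed in the difference between both ATF4 KO contrasts and, with the number as a block, in GCERAdT over GCERAd (-0.32, adjusted p = 0.0235, edgeR). It was at 13.6, 13.1, 10.9, 10.4 and 9.92 CPM in WT and 15.0, 16.4, 14.3, 13.6 and 10.5 in GCERAd, and at 15.1, 11.9 and 17.3 in TRACK and 11.7, 13.0, 11.2 and 11.6 in GCERAdT. Without TRACK the log2 fold change was 0.26 (SE 0.13, adjusted p = 0.182, edgeR), with TRACK -0.30 (SE 0.13, adjusted p = 0.216, edgeR), and the difference was -0.58 (SE 0.20, adjusted p = 0.0443, edgeR). The call on the difference held only without WT 1, WT 2, GCERAd 5 or TRACK 2. Without each of the other 13 libraries it was lost, and adjusted p-values over the 17 fits ran from 0.0158 to 0.16 (edgeR).

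Of the antiviral effectors, none passed in any comparison without the block. Isg15, a ubiquitin-like protein, was at 2.13, 2.91 and 5.33 CPM in TRACK, with TRACK 3 highest of all 17 libraries, and at 1.47 to 3.36 CPM in the other groups. Ifit1, which binds viral RNA, was at 4.30, 4.77 and 7.98 CPM in TRACK and 3.14 to 5.09 in WT, a log2 fold change of 0.60 (SE 0.24, adjusted p = 0.0689, edgeR). Ifit2, its neighbour on chromosome 19, was at 13.3, 22.6 and 27.2 CPM in TRACK and 12.5 to 16.5 in WT, 0.48 (SE 0.19, adjusted p = 0.065, edgeR). Rsad2 (viperin) was at 40.4, 54.3 and 74.8 CPM in TRACK and 41.1 to 50.1 in WT, 0.37 (SE 0.16, adjusted p = 0.0873, edgeR). In each of these 4 genes TRACK 3 was the highest TRACK library. Without TRACK 1, the lowest TRACK library in each, 3 of them passed as higher in TRACK over WT: Ifit1 at 0.77 (adjusted p = 0.0475, edgeR), Ifit2 at 0.72 (adjusted p = 0.00229, edgeR) and Rsad2 at 0.57 (adjusted p = 0.00952, edgeR). Leaving out the lowest TRACK library raises the change. Over the 8 fits with 1 library left out, the changes fell as low as 0.27, 0.25 and 0.12 in the same order. Adjusted p-values there reached 0.388, 0.322 and 0.502 (edgeR). For Isg15 the change ran from 0.09 to 0.80, and 0 of 8 fits passed.

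Ifit3, which works with Ifit1, was at 15.9, 14.1, 20.6, 16.5 and 18.2 CPM in WT and 18.2, 15.2, 10.4, 9.28 and 7.42 in GCERAd, where it spread over the range of both groups, -0.50 (SE 0.22, adjusted p = 0.123, edgeR). Rsad2 was higher in GCERAdT, at 55.0, 55.6, 63.6 and 55.8 CPM, than in GCERAd, at 39.4, 46.4, 49.8, 43.3 and 53.5, with no overlap, but did not pass (0.31, SE 0.10, adjusted p = 0.0611, edgeR). It passed in 8 of 13 alternatives, among them DESeq2 (0.31, adjusted p = 0.0344) and the number as a block (0.36, adjusted p = 0.00653, edgeR), and without GCERAd 5 (0.36, adjusted p = 0.0295, edgeR), its highest GCERAd library. That was 1 of 9 fits with 1 library left out, over which adjusted p-values reached 0.138 (edgeR). Bst2 (tetherin), which holds virus particles at the membrane, was at 7.37 to 14.0 CPM over all libraries, and Usp18, which removes Isg15 from proteins, at 1.58 to 3.31 CPM. Ifi35 was at 7.58 to 11.7 and Ifi44 at 11.8 to 18.5 CPM.

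The oligoadenylate synthetases, which make the second messenger for RNase L, and the Mx GTPases were near the limit of the depth. Oas1a was at 0.280 to 1.58 CPM on 18 to 116 reads per library. Oas2 had 1 to 61 reads, with 0.110, 0.123 and 0.261 CPM in TRACK and 0.672, 0.443, 1.00 and 0.217 in GCERAdT. In GCERAdT over TRACK the log2 fold change was 1.82 (SE 0.66, 95% interval 0.36 to 3.29, adjusted p = 0.141, edgeR), with a wide interval. Oasl2, at 3.71 to 7.95 CPM over all libraries, had a log2 fold change of 0.48 (SE 0.18, adjusted p = 0.0625, edgeR) in TRACK over WT, and passed without WT 4 (0.62, adjusted p = 0.0131, edgeR), its highest WT library. That was 1 of 8 fits with 1 library left out, over which adjusted p-values reached 0.212 (edgeR). Mx1 had 0 to 28 reads per library and Mx2 0 to 55, too few to show a moderate difference.

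The genes that cut and move peptides for class I did not pass in any comparison. Psmb8 and Psmb9, the catalytic subunits of the immunoproteasome, were at 5.51 to 10.6 and 2.55 to 5.41 CPM in WT and 6.70 to 11.6 and 3.26 to 5.89 in GCERAd. Tap1 was at 6.59 to 12.9 CPM and Tap2 at 15.0 to 23.1 CPM over all libraries. In GCERAd over WT the 95% intervals were -0.29 to 0.59 for Psmb8, -0.27 to 0.71 for Psmb9, -0.28 to 0.53 for Tap1 and -0.28 to 0.12 for Tap2 on the log2 scale. Psmb9 and Tap1 share 212 exon bases on opposite strands.

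H2-D1, a class I heavy chain (ENSMUSG00000073411, chromosome 17 from 35262730 to 35267499, + strand), was the 1 antigen presentation gene that passed without the block. It was at 259, 274 and 315 CPM in TRACK, above all WT libraries at 235, 219.6, 206, 216 and 192 CPM. The log2 fold change was 0.41 (SE 0.09, 95% interval 0.22 to 0.60, adjusted p = 0.00431, edgeR). The libraries labelled GCERAdT, at 219.9, 219, 226 and 251 CPM, lay under TRACK with no overlap (-0.29, SE 0.10, adjusted p = 0.113, edgeR), which did not pass. GCERAd held 213, 233, 224, 227 and 265 CPM, and the difference between the ATF4 KO contrasts was -0.43 (SE 0.12, adjusted p = 0.0217, edgeR). The rise in TRACK was 0.36 once library kind entered the fit (adjusted p = 0.109, edgeR), and the difference between contrasts was lost without TRACK 3 (-0.32, adjusted p = 0.0882, edgeR). In TRACK over WT, where 19.1% of all genes were higher and 18.6% lower, 5 of 5 endothelial markers were higher and 3 of 6 proximal tubule markers lower. The endothelial sum was 646 to 764 CPM in TRACK and 398 to 462 in WT, and the proximal tubule sum 3253 to 3914 and 5554 to 7241 CPM, and their part in the TRACK results was not tested.

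The other class I chains did not follow H2-D1 past the threshold. H2-K1 was at 233, 227, 214, 211 and 197 CPM in WT and 179, 205, 191, 188 and 192 in GCERAd, -0.19 (SE 0.07, adjusted p = 0.0786, edgeR). TRACK held 218, 234 and 274 CPM, 0.16 (SE 0.09, adjusted p = 0.173, edgeR) over WT. B2m, the invariant light chain, was at 331, 388, 254, 276 and 256 CPM in WT, 239, 280.0, 319, 285 and 297 in GCERAd, 277, 285 and 315 in TRACK and 229, 233, 296 and 264 in GCERAdT. The 95% interval of B2m in GCERAd over WT was -0.37 to 0.18 on the log2 scale. The class I heavy chains resemble each other closely, and reads shared between them are uncertain.

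For class II, H2-Aa was at 74.3, 80.7, 46.2, 61.1 and 46.6 CPM in WT, 73.4, 73.4, 77.5, 69.0 and 59.4 in GCERAd, 67.2, 66.9 and 70.3 in TRACK and 71.2, 76.8, 81.6 and 72.2 in GCERAdT. Cd74 was at 193, 172, 109, 140.3 and 113 CPM in WT and 145, 188, 175, 156 and 144 in GCERAd, and at 149, 148 and 155 in TRACK and 118, 137, 134 and 148 in GCERAdT. In GCERAdT over GCERAd Cd74 was -0.26 (SE 0.11, adjusted p = 0.133, edgeR), and -0.30 with the number as a block (adjusted p = 0.0289, edgeR). H2-Ab1 was at 49.3 to 88.0 CPM in WT and 65.6 to 92.1 elsewhere, and H2-Eb1 at 40.6 to 67.7 and 49.3 to 72.3 CPM. H2-Ab1 passed in TRACK over WT without WT 2, its highest WT library (0.47, adjusted p = 0.0363, edgeR). That was 1 of 8 fits with 1 library left out, over which adjusted p-values reached 0.263 (edgeR). WT spread most: its SD was 15.7 CPM for H2-Aa against 1.85 in TRACK and 4.78 in GCERAdT. In GCERAd over WT the log2 fold changes were 0.19 (SE 0.16, adjusted p = 0.442, edgeR) for H2-Aa, 0.24 (SE 0.16, adjusted p = 0.337, edgeR) for H2-Ab1, 0.13 (SE 0.15, adjusted p = 0.581, edgeR) for H2-Eb1 and 0.14 (SE 0.16, adjusted p = 0.57, edgeR) for Cd74.

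Ciita, the master regulator of class II, was at 3.71, 2.90, 1.89, 3.01 and 2.27 CPM in WT, 4.80, 5.31, 4.39, 2.50 and 2.94 in GCERAd, 2.17, 2.58 and 2.49 in TRACK and 2.62, 2.49, 2.62 and 1.66 in GCERAdT. GCERAd 1, 2 and 3 held the highest 3 values of all libraries. Its log2 fold change was 0.53 (SE 0.25, adjusted p = 0.152, edgeR) in GCERAd over WT and -0.76 (SE 0.26, adjusted p = 0.0702, edgeR) in GCERAdT over GCERAd. Without GCERAd 4 and 5, these were 0.81 (adjusted p = 0.0184, edgeR) and -1.03 (adjusted p = 0.00548, edgeR). Those libraries were its lowest in GCERAd, so leaving them out enlarges both changes. With the number as a block, Ciita in GCERAdT over GCERAd was -0.83 (adjusted p = 0.0113, edgeR). H2-Ea, the class II chain that pairs with H2-Eb1, had no read in any library.

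The spread among WT libraries was shared by the antigen presentation genes, again a pattern noted after the values were seen. WT 1 and 2 both lay above WT 3, 4 and 5 in 11 of 12 (91.7%), all but Ciita, and in 10 of 27 interferon-induced genes (37.0%), against 12.0% of all genes tested. The summed CPM of the 12 genes was 1269, 1288, 959, 1067 and 939 over WT 1 to 5. The macrophage and dendritic cell sum was 110.4, 99.995, 115, 107 and 99.0 CPM in the same order, Ptprc 7.50, 6.73, 4.35, 8.21 and 6.92 CPM, and the sum of 7 T cell markers 5.91, 5.75, 5.66, 4.27 and 4.17 CPM. The T cell sum put both libraries on top by a small margin, and the other two did not. By reads, Csf1r was the largest part of the macrophage and dendritic cell sum, at 3720, 2726, 4442, 2770 and 3437 over WT 1 to 5. C1qa, the next in total, had 1032, 786, 470, 802 and 751 reads. The order of that sum therefore leans on Csf1r and does not stand for each marker. WT 1 is of kind A and WT 2 of kind B. They were also the WT pair of different kinds whose counts were closest, though further apart than sampling noise. WT 2 is the only WT library of kind B, and the same-kind pairs WT 1 and 4 and WT 4 and 5 were closer still. The part of other cells in this pattern was not tested.

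**Figure D4:**
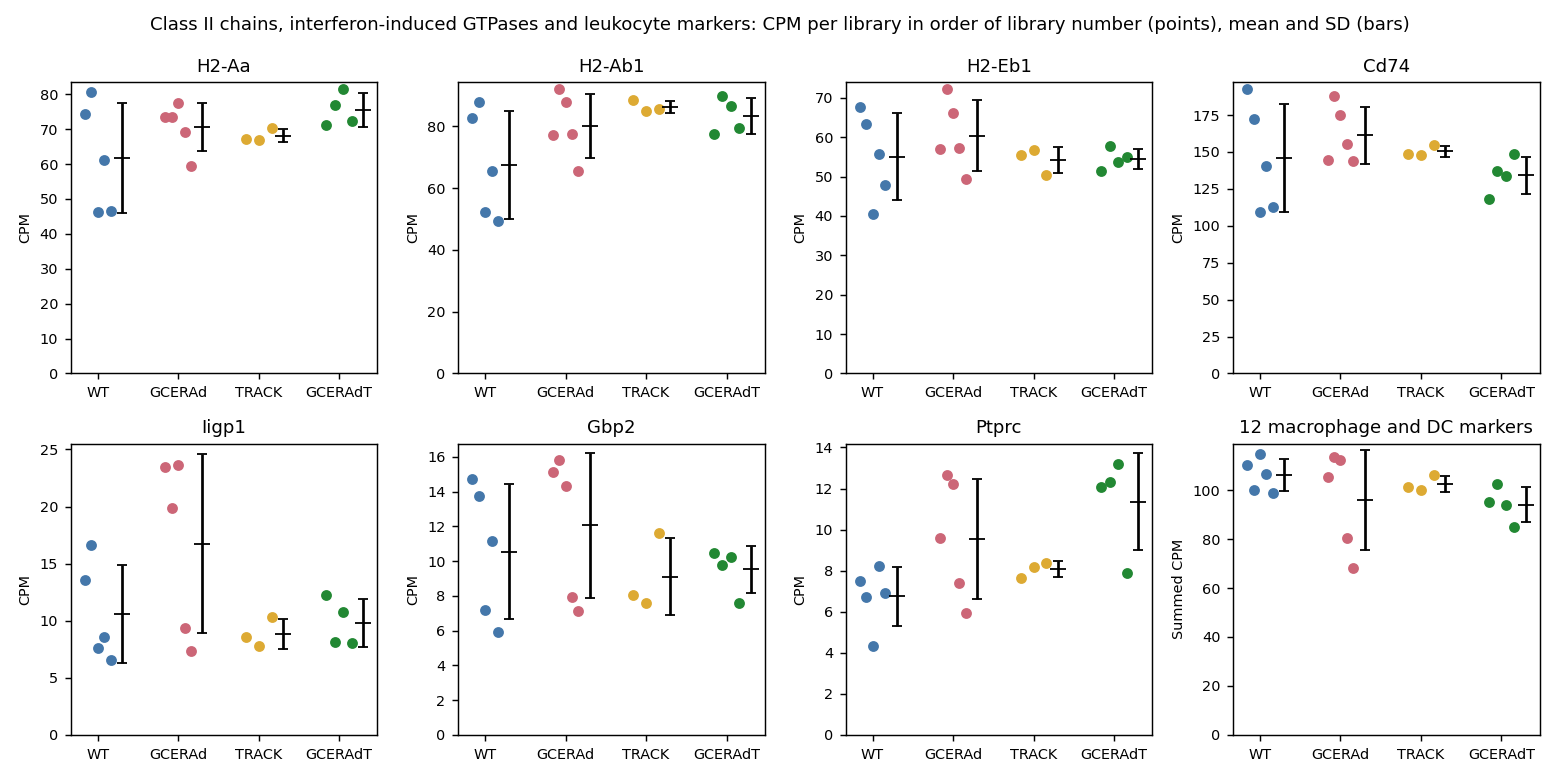
CPM of 4 class II genes, 2 interferon-induced GTPases, the leukocyte marker Ptprc and the sum of 12 macrophage and dendritic cell (DC) markers, with libraries as points in order of library number and bars for the mean and SD. The first 2 WT points are highest for the class II genes, and the last 2 of the 5 GCERAd points are lowest for Iigp1, Gbp2, Ptprc and the marker sum.

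The rest of the pathway was read from lists. Of 21 interferon genes, 19 had no read in any of the 17 libraries, where a count of 0 allows up to 3 reads in a library, and the others, Ifng and Ifnz, had 17 reads in all. Ifng, the gene of interferon-gamma, reached 0.217 CPM in GCERAdT 4. The 15 receptor and signalling genes listed were all tested. In GCERAd over WT, 1 rose and 0 fell: the kinase gene Jak1, at 105, 92.4, 104, 122 and 110.0 CPM in WT and 141, 141, 129, 135 and 134 in GCERAd, with a log2 fold change of 0.35 (SE 0.08, adjusted p = 0.00795, edgeR). In GCERAdT over GCERAd 2 rose, the receptor chain Ifngr2 (0.37, SE 0.09, adjusted p = 0.0159, edgeR) and the phosphatase Ptpn2 (0.33, SE 0.09, adjusted p = 0.0288, edgeR). In TRACK over WT 6 rose (8 of 15 passed, 53.3%, against 37.7% of all genes), led by the interferon-gamma receptor chain Ifngr1 (0.77, adjusted p = 0.000261, edgeR) and Stat3 (0.56, adjusted p = 0.000362, edgeR), and 2 fell, Tyk2 (-0.56) and Il10rb (-0.26). In GCERAdT against TRACK 0 of 15 passed, with 6 at an unadjusted p of 0.05, which 3703 of all 16657 genes reached.

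Of 85 other interferon-induced genes, 8 rose and 5 fell of 84 tested in GCERAd over WT (15.5%, against 21.2% of all genes). The largest rises were in Parp10 (1.08), Rnf213 (0.77), Ly6e (0.70) and Dtx3l (0.63), and Ifi44l fell on 3 to 44 reads per library in WT and 0 to 5 in GCERAd, too few for a fold. The next falls were in Bst1 (-1.18) and Ifitm1 (-0.87), as log2 fold changes. In TRACK over WT, 18 rose and 10 fell of 82 (34.1%, against 37.7% of all genes). Isg20, an exonuclease (2.73), and the chemokines Cxcl10 (1.41) and Ccl5 (1.37) rose most. Ifi44l fell, to 0 to 1 reads in TRACK, and so did the GTPases Gbp10 (16 to 52 reads in WT and 0 to 10 in TRACK), Gbp6 (-1.97) and Tgtp1 (-1.88). In GCERAdT over TRACK 0 of 81 passed, with 16 at an unadjusted p of 0.05, which 3703 of all 16657 genes reached. In GCERAdT over GCERAd, Isg20 rose (3.22, SE 0.18, adjusted p = 1.42e-06, edgeR), and Gbp10 (-2.85) and Ly6e (-0.69) fell, of 83. Isg20 was at 1.17, 0.899, 1.68, 1.09 and 0.987 CPM in GCERAd and 10.2, 11.6, 12.0 and 9.82 in GCERAdT.

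These lists are small, and the shares of all genes called were 21.2% in GCERAd over WT and 37.7% in TRACK over WT. Of 20 further sensor and adaptor genes in the table, 2 of 19 tested rose in GCERAd over WT, Irf8 (0.51) and Trim25 (0.44). In TRACK over WT the same 2 rose, and Ikbke (-1.08) and Ticam1 (-0.38) fell. Of 30 other class I genes, 27 were tested: 2 rose and 5 fell in GCERAd over WT, the falls led by H2-Q2 (-1.15), Mr1 (-0.57) and H2-Q6 (-0.50). In TRACK over WT 3 rose and 3 fell, with H2-Q10 at 2.07. Of the other class II genes, 14 were tested in both: Cd83 (0.87) and Marchf1 (0.66) rose and Rfxap (-0.32) fell in GCERAd over WT, and 3 rose and 3 fell in TRACK over WT. In GCERAdT over TRACK, 1 of 27 class I genes passed, the neonatal Fc receptor gene Fcgrt (-0.39), and 0 of 15 class II genes.

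Other cells that carry these genes were scarce in all groups. B cell markers, 5 genes, summed to 0.932 to 1.53 CPM in WT, 1.02 to 3.01 in GCERAd, 2.43 to 3.28 in TRACK and 3.46 to 5.24 in GCERAdT, and Cd79a rose in TRACK over WT (2.07, SE 0.42, adjusted p = 0.003, edgeR) and in GCERAdT over GCERAd (1.63, SE 0.40, adjusted p = 0.02, edgeR). NK cell markers summed to 0.332 to 1.52 CPM and neutrophil markers to 0.539 to 3.21 CPM over all libraries. Siglech, a marker of plasmacytoid dendritic cells, which make type I interferon, was at 0.165, 0.508 and 1.34 CPM in TRACK, on 9, 29 and 82 reads. TRACK 3 was the highest TRACK library, as it was for Isg15, Ifit1, Ifit2 and Rsad2. It was also highest in TRACK for the NK and neutrophil sums, at 1.34 and 3.21 CPM. In GCERAdT, Siglech was highest in GCERAdT 2, at 0.819 CPM, and Rsad2 in GCERAdT 3, at 63.6 CPM. The part of these cells in the values of the members was not tested.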

How the data were processed

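Kidney cortex RNA was sequenced as 17 libraries after a TruSeq Stranded mRNA preparation. Per the study's methods and the submitters' processing notes, the authors made FASTQ files with bcl2fastq, trimmed reads with cutadapt, aligned them with STAR to the mouse genome (GRCm38) and counted them per gene with HTSeq, and the deposited table holds these raw counts for 48795 genes (53688512 to 71364561 per library). The number of per-sample columns that could not be assigned and were not used was 0. RCC4 cells, which the study also used, are not analysed here, and 1 gene of the pathway lists is not reported here.

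The 39 genes and all lists were chosen with earlier results of these data known. Each comparison used edgeR's quasi-likelihood test (edgeR 4.0.16, limma 3.58.1, R 4.3.3) on the counts of its own groups, with TMM factors, genes with a mean of at least 10 counts and Benjamini-Hochberg adjustment over all genes tested, two-sided, with an adjusted p of at most 0.05 as the threshold. The difference between both ATF4 KO contrasts was fitted over all 17 libraries. Intervals are the fold change plus or minus the 95% quantile of its t distribution times its SE. CPM were set on a single TMM scale over the 17 libraries, and FPKM divided CPM by merged exon length (GENCODE M21, GRCm38). Scripts were tested on simulated data.

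Named were all 39 members, Atf4, Xist, Ddx3y and cell type markers, and of each other list at most 5 called genes each way by size of the fold change. Alternatives were DESeq2 1.42.0, RLE scaling, other minimums on low values, the library number as a block, all 17 libraries in 1 fit, unadjusted p, each library left out, and possible repeat libraries summed. Possible repeats were only the pair of different kinds with the closest counts in a group: WT 1 and 2, GCERAd 2 and 3, and GCERAdT 2 and 3. Library kind as a covariate, each kind alone, and GCERAd without libraries 4 and 5 were added after seeing the data. Whether library numbers pair the samples was judged from the correlation of same-numbered deviations from the group means. In GCERAdT against GCERAd it was 0.39 to 0.51 in 4 of 4 pairs, so the blocked values are given beside the results there. It exceeded 0.1 in 0 of 5 pairs of GCERAd and WT, 0 of 3 of GCERAdT and TRACK and 0 of 3 of TRACK and WT. The labels do not say what a number marks, and library kind was the same within each pair of GCERAd and GCERAdT. A pairing by number and a shared kind therefore cannot be told apart. The study states 3 to 4 mice per cohort, whereas WT and GCERAd have 5 libraries each, and 2 sample names in its table of sequencing runs recur with an added letter, so some libraries may share a mouse. No pair agreed within sampling noise. P-values measure the spread between these libraries and are too small where libraries share a mouse.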

Additional observations from a re-analysis of the deposited data

Results flagged for a closer look

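In 6 of 117 tests of a member in a group of 4 or 5 libraries, 1 library lay further from its group than the gap allowed for that number of libraries, a rate near the 1 in 20 that chance gives. WT 4 was high for Irf7, at 15.0 CPM with the next library at 10.4. GCERAd 3 was high for Mx1, at 0.277 CPM against 0.0468 in the nearest, and for Usp18, at 3.31 against 2.15. Among the libraries labelled GCERAdT, GCERAdT 3 was high for Rsad2, at 63.6 CPM against 55.8, and GCERAdT 4 was low for Ifit3, at 8.91 against 13.5, and for Ciita, at 1.66 against 2.49.

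The effect of the ATF4 KO label differed with and without TRACK for 24 genes of the members and pathway lists (edgeR, adjusted over 16492 genes), given here as the log2 contrast with TRACK minus that without it. By list, 6.67% to 18.5% of the genes tested passed, under the 19.8% of all 16492 genes. Of the members, the genes that passed were Gbp3 (2.79, adjusted p = 0.000257), Gbp7 (0.94, adjusted p = 0.000573), H2-D1 (-0.43, adjusted p = 0.0217) and Irf1 (-0.58, adjusted p = 0.0443). For signalling and sensing they were Jak1 (-0.47, adjusted p = 0.00895), Tlr3 (0.48, adjusted p = 0.0492), Trim25 (-0.64, adjusted p = 0.00599) and Traf3 (0.43, adjusted p = 0.0223). Other induced genes below 0 were Ifi30 (-0.61, adjusted p = 0.00304), Parp10 (-1.37, adjusted p = 0.000924), Dtx3l (-0.74, adjusted p = 0.000523), Ifitm3 (-0.52, adjusted p = 0.0264), Slfn5 (-0.67, adjusted p = 0.00936) and Ly6e (-1.03, adjusted p = 0.000108), and those above 0 were Parp12 (0.56, adjusted p = 0.00719), Ifitm2 (0.69, adjusted p = 0.00394) and Oas1g (3.63, adjusted p = 0.0223). In antigen presentation they were Canx (-0.37, adjusted p = 0.0345), H2-Q6 (0.87, adjusted p = 0.00571), H2-T24 (-0.72, adjusted p = 0.0491), Mr1 (0.69, adjusted p = 0.00624), Psmb7 (-0.43, adjusted p = 0.0474), Rfxap (0.54, adjusted p = 0.0127) and Marchf1 (-0.96, adjusted p = 0.00591). Each includes WT, whose libraries also differ from all others in Xist and Ddx3y, and the libraries labelled GCERAdT, where Atf4 was not lower than in TRACK.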

How the results depend on the processing

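No member reversed its direction past the threshold in any alternative. Over the members' fold changes, 4036 of the values under an alternative stayed on their side of the threshold, 97 passed only there and 39 were lost there. The calls of Dhx58 and Gbp7, and those of Gbp3 and Igtp in TRACK over WT, held in every alternative run, of which kind B alone leaves 1 WT library. Interferon-induced genes are given first below, then antigen presentation genes, and the cause of each change was not tested.

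In GCERAd over WT, 1 induced gene was lower and 0 higher, with no antigen presentation gene, among 3428 calls over all genes. At an unadjusted p, 3 induced genes and 1 antigen presentation gene were lower among 5507 calls. Among kind A libraries 3 and 1 were higher, among kind B 0 induced genes were lower of 118 calls, and without GCERAd 4 and 5, 2 and 1 were higher. With 1 library left out, 0 to 1 induced genes were higher (1 without WT 2) and 1 to 2 lower (2 without WT 5 or GCERAd 1). No all-gene count stands beside the kind A fit, that without GCERAd 4 and 5 or those with 1 library left out. In the main fit 10.8% of all genes were higher and 10.5% lower.

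In GCERAdT over TRACK, 1 induced gene was higher, with 878 calls over all genes. Unadjusted, 5 were higher, 2 lower and 1 antigen presentation gene lower, of 3703. DESeq2 gave 2 higher and 1 antigen presentation gene lower, of 1761. Calls over all genes were 519 with repeats summed, 448 with kind as a covariate, 208 in kind B, and 377 to 1460 with 1 library left out (the lowest without GCERAdT 2, the highest without GCERAdT 4; 419 without TRACK 1, 416 without TRACK 2, 541 without GCERAdT 1 and 508 without GCERAdT 3), with 1 to 2 induced genes higher (Gbp3 also, without GCERAdT 4).

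In TRACK over WT, 2 induced genes and 1 antigen presentation gene were higher, with 6166 calls over all genes. Higher induced genes were 9 unadjusted, 7 with DESeq2, 4 with a mean count of 50, 5 with all 17 libraries in the fit, 1 with kind as a covariate and 1 in kind B. They were 2 to 5 with 1 library left out (5 without WT 4 or TRACK 1), and antigen presentation genes 1 to 2 (2 without WT 2). No all-gene count stands beside the DESeq2, mean count of 50, 17-library and left-out fits. In the main fit 19.1% of all 16369 genes were higher, and unadjusted at least 6166 passed either way. With kind as a covariate and in kind B, which leaves WT 2 alone, 0 antigen presentation genes were higher, with 2710 and 1345 calls.

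In GCERAdT over GCERAd, 2 induced genes were higher and 2 lower, with 2336 calls over all genes. Unadjusted, 4 were higher, with 1 antigen presentation gene higher and 2 lower, of 4635. DESeq2 gave 1 antigen presentation gene higher and 1 lower, and Rsad2 as a further induced gene higher. Lower induced genes were 0 with repeats summed (of 1146 calls), 4 in kind A, 0 in kind B (of 373) and 5 without GCERAd 4 and 5 (of 3578). Lower antigen presentation genes were 1 with all 17 libraries, 1 with kind as a covariate, 1 in kind A and 2 without GCERAd 4 and 5. With 1 library left out, 1 to 3 induced genes and 0 to 1 antigen presentation genes were lower (Ciita, without GCERAd 4 or 5), with 1457 to 2451 calls, the lowest without GCERAdT 2.

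For the difference between contrasts, 1 induced and 1 antigen presentation gene were below 0, with 3264 calls over all genes. Unadjusted, 2 induced genes were below 0, of 5487. The induced gene was lost (0 below) with an FPKM of at least 1, with no minimum, with repeats summed and in kind B (412 calls), and the antigen presentation gene (0 below) with repeats summed, kind as a covariate and kind B. With 1 library left out each count was 0 to 1.

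With the library number as a replicate block, calls over all genes were 2196 in GCERAd over WT, 783 in GCERAdT over TRACK, 3644 in TRACK over WT, 4058 in GCERAdT over GCERAd and 3156 for the difference. The block gave 2 higher induced genes in GCERAdT over TRACK, 0 antigen presentation genes in TRACK over WT, and 6 induced and 2 antigen presentation genes lower in GCERAdT over GCERAd. Same-numbered libraries deviated together in GCERAdT against GCERAd and not in the other 3 comparisons of groups. Kind was also shared within those pairs, so a pairing by number cannot be told apart from library kind. Kind A held no TRACK library, so comparisons with TRACK were not run in it. Depth limits Mx1, Mx2, Oas1a, Oas2, Ifi44l and Gbp10.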
